A study of Homo sapiens with 12 samples.

Results

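DDX and DHX proteins are RNA helicases, and DHX9 is the member of that family that this study knocked down and whose binding to EWS-FLI1 YK-4-279 is meant to block. The members were all entries of the deposited expression table that carry a symbol made of DDX or DHX, a number and at most 1 further letter. This rule used no expression value, and it found 57 entries among 78885, with 56 distinct symbols, of which 40 are DDX and 16 are DHX genes. RNA sequencing covered 12 libraries from TC-71, a line of human Ewing sarcoma cells with the EWS-FLI1 fusion. Each of 4 groups had 3 libraries: cells given YK-4-279 for 16 h at a labelled dose of 2 mM, cells given DMSO for 16 h, cells transfected against DHX9 (siDHX9) and collected at 48 h, and cells transfected with a scrambled control and collected at 48 h. The genotype label is WT for the drug and DMSO groups, DHX9 knockdown for siDHX9 and scrambled knockdown for its control, and all 4 groups are the same cell line. The transfected molecules are siRNAs in the protocols but shRNAs in the design text, and no sequence of them was used here. The labels give 3 biological replicates per group, so the p values measure the spread between cultures of 1 line.

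DDX and DHX helicases are named after the amino acid letters of a shared motif, and they use ATP to unwind or remodel RNA and to strip proteins from it. Different members act in splicing, ribosome assembly, mRNA export, translation, mRNA decay and the sensing of viral RNA, and DDX11 works on DNA. DHX9, also called RNA helicase A, binds EWS-FLI1, the fusion transcription factor of Ewing sarcoma, and YK-4-279 was developed as a small molecule that blocks this binding.

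Each library held, in units of 1e6 reads, between 48.3 and 53.7 with YK-4-279, 38.6 and 65.5 with DMSO, 46.9 and 49.4 for siDHX9 and 47.8 and 51 for the scrambled control. All 8 of the Ewing sarcoma markers examined, CD99 and NR0B1 among them, were present in every library. Of 12 markers of blood, epithelial, endothelial and stromal cells, CD3E and KRT5 were at 0 throughout, and 3 stromal genes, DCN, LUM and PDGFRB, had medians of 306.8, 53.79 and 279.4 normalised read counts. The summed level of those 12 markers was 647.8 to 886.3 with YK-4-279, 568.5 to 658.7 in DMSO, 716.5 to 1023 in siDHX9 and 644.4 to 889 in scrambled libraries. The ribosomal RNA entry held 8.79% ± 1.07 of reads with YK-4-279, 5.19% ± 0.244 in DMSO, 2.71% ± 0.915 in siDHX9 and 4.09% ± 0.963 with the scrambled control (SD, n = 3 each), and its part in the results below was not tested. Some libraries stood apart among the helicases. Scrambled replicate 2 was the highest of all 12 libraries in 14 of 52 entries, while scrambled replicate 1, siDHX9 replicate 1 and siDHX9 replicate 3 were the lowest in 9, 9 and 10 entries.

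Of the 57 entries, 52 had a mean of at least 10 normalised read counts and were tested, and the other 5 did not pass this minimum. DDX43, DDX53 and a further entry for DDX3Y had no read in any library, where 3 reads in all 12 libraries (601 in units of 1e6 reads) would be a share of 0.00499 per 1e6 reads, the upper limit that a count of 0 allows, for counting error only. DDX4, a germ line gene, had at most 4.57 normalised read counts in any library, and a further entry for DHX57 had at most 0.9. Joined entries, in which the table sums several genes, numbered 4: DHX9 with NPL, DDX47 with APOLD1, DDX19A with DDX19B, and DDX39B with ATP6V1G2. Of the tested entries, 14 overlap some other named gene, and since no source used here says whether counting was by strand, their reads and those of the neighbour cannot be told apart. Among the genes described here this holds for DHX9 with LOC647070, DDX11 with DDX11-AS1, DHX38 with TXNL4B, DDX28 with DUS2, DDX5 with CEP95, DHX16 with C6orf136 and the joined DDX19 entry with LOC100506083. A bulk sample cannot separate fewer cells from less RNA per cell.

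Promoters are shown for DHX9, for the other 2 helicases whose drug and knockdown effects differed (DDX11 and DHX8), for the largest called fall in siDHX9 cells among the other helicases (DDX21) and for the largest called rise with YK-4-279 (DHX37). Sequences and coordinates are from RefSeq (GRCh38.p14), which held a promoter for 50 of the 56 symbols, and each runs 5′ to 3′ from 250 bases before to 50 bases after the gene's start. Capitals mark an ETS core (CCGGAAG, or CTTCCGG on the other strand), the site type bound by FLI1 and its relatives, or an E2F match (GCGGGAA, or TTCCCGC on the other strand).
DHX9, chr1:182839097-182839396, plus strand: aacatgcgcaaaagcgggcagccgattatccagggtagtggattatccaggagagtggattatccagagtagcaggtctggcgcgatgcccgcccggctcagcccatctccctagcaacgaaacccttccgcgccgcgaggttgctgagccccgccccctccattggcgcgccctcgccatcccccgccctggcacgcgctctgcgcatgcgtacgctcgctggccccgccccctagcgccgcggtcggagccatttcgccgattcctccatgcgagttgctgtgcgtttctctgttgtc
DDX11, chr12:31073610-31073909, plus strand: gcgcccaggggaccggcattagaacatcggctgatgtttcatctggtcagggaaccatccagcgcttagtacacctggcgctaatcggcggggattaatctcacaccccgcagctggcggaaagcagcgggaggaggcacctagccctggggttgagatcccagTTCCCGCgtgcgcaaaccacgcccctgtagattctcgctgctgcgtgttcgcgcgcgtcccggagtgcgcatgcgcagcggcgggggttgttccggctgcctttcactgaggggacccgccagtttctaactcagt
DHX8, chr17:43483725-43484024, plus strand: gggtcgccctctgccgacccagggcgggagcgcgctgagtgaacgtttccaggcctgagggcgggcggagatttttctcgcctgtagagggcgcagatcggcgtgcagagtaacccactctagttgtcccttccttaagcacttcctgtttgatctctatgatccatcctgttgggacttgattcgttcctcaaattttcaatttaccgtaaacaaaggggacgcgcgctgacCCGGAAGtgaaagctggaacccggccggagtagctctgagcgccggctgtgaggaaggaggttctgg
DDX21, chr10:68955920-68956219, plus strand: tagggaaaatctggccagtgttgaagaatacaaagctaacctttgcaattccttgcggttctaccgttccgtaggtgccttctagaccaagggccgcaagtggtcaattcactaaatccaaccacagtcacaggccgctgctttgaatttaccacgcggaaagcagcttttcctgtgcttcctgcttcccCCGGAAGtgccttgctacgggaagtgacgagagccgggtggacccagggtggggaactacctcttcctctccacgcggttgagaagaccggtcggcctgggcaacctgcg
DHX37, chr12:124989082-124989381, minus strand: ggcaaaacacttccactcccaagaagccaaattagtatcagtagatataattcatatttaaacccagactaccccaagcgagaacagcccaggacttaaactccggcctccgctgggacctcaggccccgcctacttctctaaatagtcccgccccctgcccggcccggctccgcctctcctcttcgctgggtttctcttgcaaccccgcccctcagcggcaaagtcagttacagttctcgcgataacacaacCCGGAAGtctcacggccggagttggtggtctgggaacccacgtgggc
The ETS core was present in 21 of the 47 tested members with a promoter (44.7%), against 18.6% of the promoters of 11589 tested genes and 10.3% of all 35116 promoters. DHX8, DDX21 and DHX37 hold it, and DHX9 and DDX11 do not. An E-box (CACGTG, the same on both strands) was found in 8 members (17%, against 10.4% of tested genes), DHX37 among them. The E2F letters were found in 6 members (12.8%, against 10.1%), DDX11 among them, a CCAAT box (CCAAT or ATTGG) in 19 (40.4%, against 36.6%) and a GGAA repeat (GGAAGGAA or TTCCTTCC) in 3 (6.38%, against 3.26%). No motif in this set contains another, although an ETS core and a GGAA repeat can share bases. The median GC content was 61% for the members' promoters and 58.7% for all promoters. A match describes the letters only, and no factor's binding was measured.

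Levels can be compared between genes only per length, and 48 tested entries had a length. The 4 joined entries had none and are not ranked. Among them, those of DHX9 and DDX39B had higher mean read counts (29504.5 and 26799) than DDX1 (21255). Of the 48, DDX1, which takes part in RNA processing and tRNA splicing, had the highest level with 7416 normalised reads per kb of exon. DDX5, a coactivator of transcription that also acts in microRNA processing, followed with 6893. DDX39A, an mRNA export helicase, had 4465 reads per kb, DHX15, which takes spliceosomes apart, had 3415, and DDX56, a nucleolar helicase, had 2949. The median was 371 reads per kb, and 14 of the 48 entries had at least 1000. The sensors of viral RNA were low: DDX58 (RIG-I) had 41.4 reads per kb, and DHX58 (LGP2) with 4.00, DDX60L with 2.93 and DDX60 with 2.26 were the lowest entries. DHX33, DDX6 and DDX25 also stood below DDX58, with 22.2, 15.1 and 6.78 reads per kb. The range from DDX1 to DDX60 was 3280-fold, far wider than any change between groups.

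**Figure D1:**
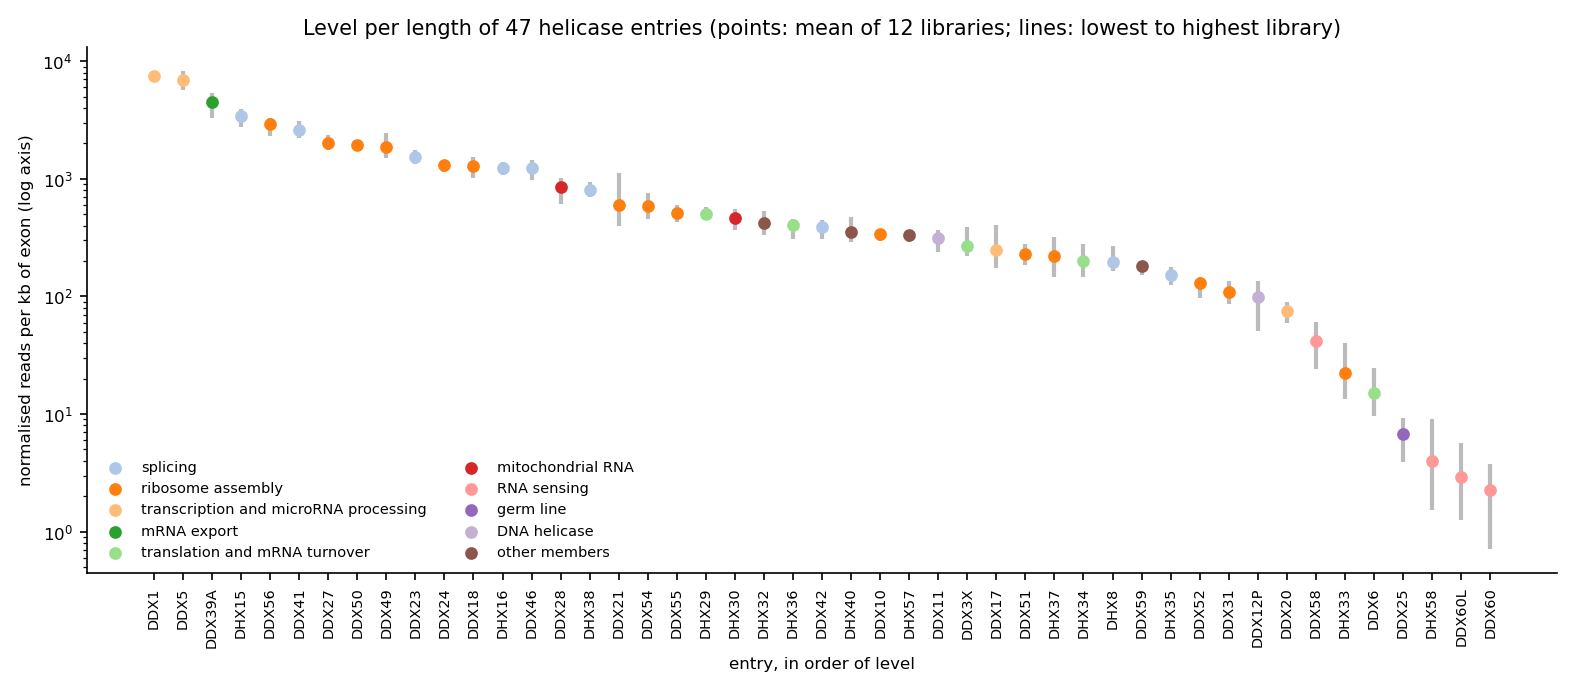
Mean level of 47 helicase entries over all 12 libraries in normalised reads per kb of exon (vertical log axis), in order of level and coloured by role, with lines from the lowest to the highest library. DDX1 and DDX5 stand at the top with 7416 and 6893 reads per kb, and the RNA sensing members DHX58, DDX60L and DDX60 at the bottom with 4.00 to 2.26.

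The knockdown was checked first on its target. The DHX9 entry (hg19 chr1:182758584-182857117, joined with NPL) had 19342, 21178 and 21304 normalised read counts in siDHX9 libraries, against 30287, 33422 and 34357 in scrambled libraries. Every siDHX9 library was below every scrambled library. DHX9 fell by 36.9% (log2 difference -0.66 ± 0.07 SE, 95% interval -0.81 to -0.52, limma adjusted p = 4.54e-05 over 14225 genes). The two-sided exact permutation test of 3 against 3 libraries gave p = 0.1, the smallest it allows. How much of the remaining count belongs to NPL cannot be told apart in this entry.

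With YK-4-279 the DHX9 entry had 30613, 29420 and 29959 normalised read counts, against 36422, 34511 and 33239 in DMSO. The drug libraries were again all below the DMSO libraries. The log2 difference was -0.21 ± 0.07 SE (95% interval -0.36 to -0.06), which missed the threshold (limma adjusted p = 0.0567, exact permutation p = 0.1). It passed in 9 of 25 alternative analyses, with adjusted p values of 0.0038 to 0.277 over all of them. The drug effect on DHX9 was smaller than the knockdown effect, with a difference of effects of 0.45 ± 0.10 on the log2 scale (limma adjusted p = 0.011).

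Across the 52 tested entries, 5 helicases were higher and 3 were lower with YK-4-279 than in DMSO at an adjusted p under 0.05. The 5 that rose are 9.62% of the members, against 7.33% of all 14225 genes, and the 3 that fell are 5.77%, against 6.49%, so the share of helicases that changed was near that of all genes. The median log2 difference was -0.06 for the helicases and 0.02 for all genes, and the helicases ranged from -0.88 to 0.60. In siDHX9 cells 2 helicases were higher (3.85%, against 8.75% of all genes) and 8 were lower, DHX9 included (15.4%, against 7.97% of all genes). With only the 6 siDHX9 and scrambled libraries in the fit, all of these siDHX9 calls except that of DHX9 were lost. The median was -0.10 for the helicases and 0.00 for all genes, with a range of -0.76 to 1.01. The difference of the 2 effects was called in 3 helicases (5.77%, against 9.69% of all genes), 2 of them with the drug effect above the knockdown effect (3.85%, against 4.4%) and 1 below it (1.92%, against 5.29%). No helicase was called in both comparisons, 18 were called in 1 of them, and 34 were called in neither. At an unadjusted p under 0.05 the counts were 21 with YK-4-279 and 19 in siDHX9 cells. The share of all genes at that threshold was not computed, so these counts are no result about the helicases.

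**Figure D2:**
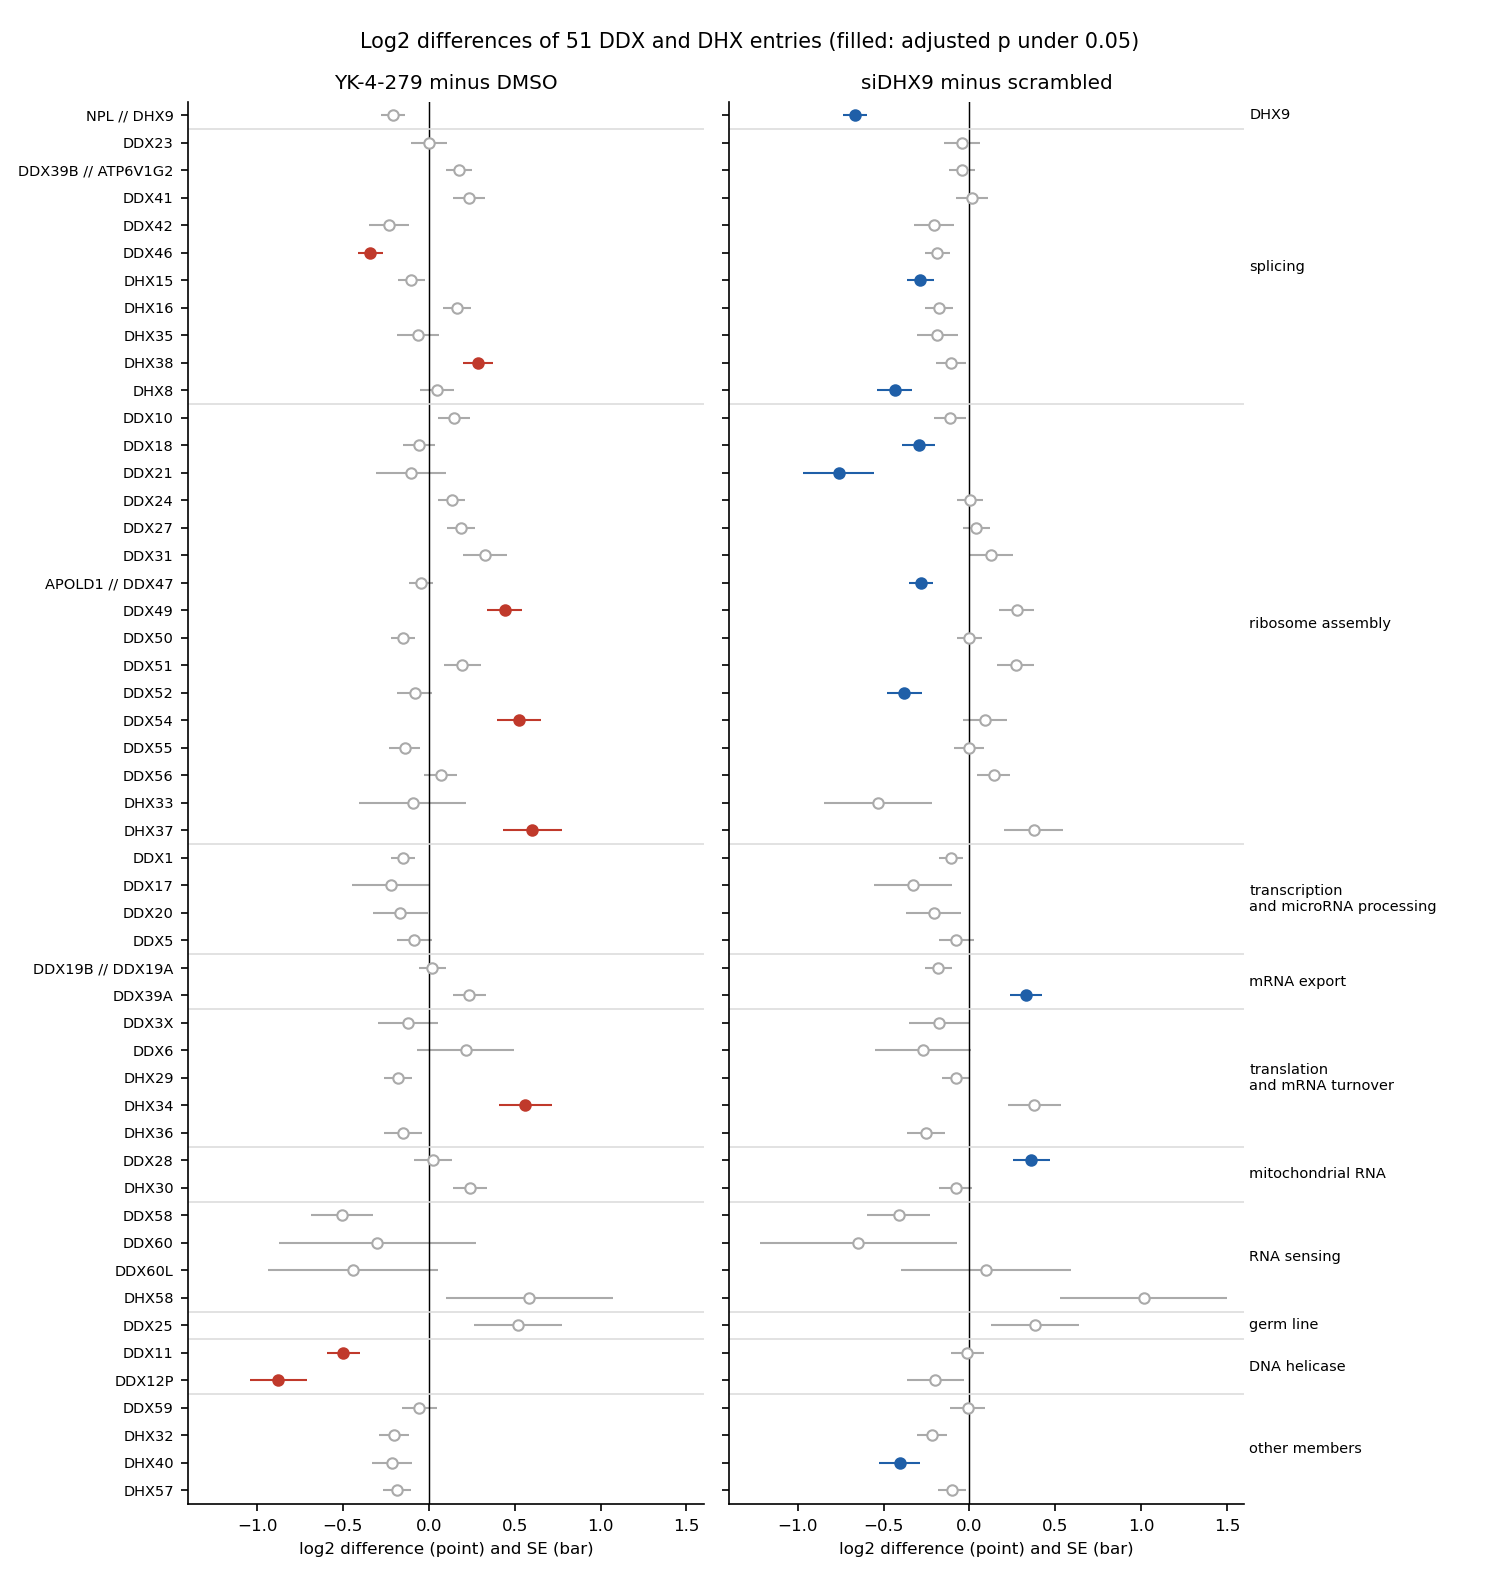
Log2 difference (points) with its SE (bars) of 51 helicase entries, grouped by role, for YK-4-279 minus DMSO (left) and siDHX9 minus scrambled (right), with filled points for an adjusted p under 0.05. With the drug 5 helicases were higher and 3 lower, and in siDHX9 cells 2 were higher and 8 lower.

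Ribosome assembly has 16 of the 52 tested entries and held 7 of the 18 calls. With YK-4-279, 3 of the 16 rose and none fell, against 7.33% and 6.49% of all genes, and in siDHX9 cells none rose and 4 fell, against 8.75% and 7.97% of all genes. The medians of the 16 were 0.10 and 0.00 on the log2 scale. DHX37, which acts on the precursor of the small ribosomal subunit (chr12:125431371-125473667, hg19), had 1401, 1514 and 1354 normalised read counts with YK-4-279, against 819.9, 949.3 and 1054 in DMSO. All drug libraries were above all DMSO libraries, and DHX37 rose by 51.8% (log2 difference 0.60 ± 0.17 SE, limma adjusted p = 0.0336). In siDHX9 and scrambled libraries, whose ranges overlapped, DHX37 had 1002, 757.4 and 1374, against 700.6, 880.4 and 776.1 normalised read counts, with the promoter shown above.

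DDX54, whose yeast relative works in large subunit assembly (chr12:113594979-113623284), had 3218, 3341 and 3169 normalised read counts with YK-4-279, against 2197, 2024 and 2575 in DMSO. DDX49, whose yeast relative works in small subunit assembly (chr19:19030484-19039442), had 4120, 4715 and 4462 with YK-4-279, against 3078, 3215 and 3500 in DMSO. In both genes the drug and DMSO libraries did not overlap. DDX54 rose by 0.52 ± 0.13 and DDX49 by 0.44 ± 0.10 on the log2 scale (SE, limma adjusted p = 0.0167 and 0.0131). DDX49 was also above its control in every siDHX9 library, with 3442, 3217 and 4332, against 2881, 3084 and 3052 in scrambled libraries, but that log2 difference of 0.27 ± 0.10 missed the threshold (limma adjusted p = 0.0813).

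The 4 that fell in siDHX9 cells were DDX21, DDX52, DDX18 and DDX47. DDX21, a nucleolar helicase of ribosomal RNA transcription and processing (chr10:70715879-70744825), had 2114, 3058 and 2003 normalised read counts in siDHX9, against 3344, 5649 and 3338 in scrambled libraries. The groups did not overlap, and scrambled replicate 2 was far above the other two controls. The log2 difference was -0.76 ± 0.20 SE (limma adjusted p = 0.0242), and without scrambled replicate 2 it was -0.51 (limma adjusted p = 0.0842, with a range of 0.00231 to 0.288 over 25 alternatives). The call was also lost without siDHX9 replicate 1 or siDHX9 replicate 3. With YK-4-279 DDX21 had 3179, 2340 and 2600, against 3412, 2723 and 2589 in DMSO, and these groups overlapped.

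DDX52 (chr17:35969792-36003493) had 612.5, 775.7 and 625.8 normalised read counts in siDHX9, against 834, 880.4 and 892.8 in scrambled libraries. DDX18 (chr2:118572255-118597406) had 4105, 4582 and 3855 in siDHX9, against 4921, 5413 and 5032 in scrambled libraries. The DDX47 entry (chr12:12878851-12982914, joined with APOLD1) had 8471, 8792 and 9049 in siDHX9, against 10039, 10330 and 11626 in scrambled libraries. All 3 are known from yeast relatives as ribosome assembly factors, and in each of them every siDHX9 library was below every scrambled library. The log2 differences were -0.38 ± 0.10, -0.30 ± 0.09 and -0.28 ± 0.07 (SE, limma adjusted p = 0.0244, 0.0475 and 0.017). The call was lost for DDX52 without scrambled replicate 2, siDHX9 replicate 1 or siDHX9 replicate 3, for DDX47 without siDHX9 replicate 1, and, over all 25 alternatives, in 6 for DDX52, 3 for DDX47 and 15 for DDX18.

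The 10 splicing helicases had 1 rise and 1 fall with YK-4-279, near the 7.33% and 6.49% of all genes, and 2 falls in siDHX9 cells, where 7.97% of all genes fell. DDX46, which acts where U2 snRNP joins the branch site (chr5:134094424-134166824), had 5951, 5687 and 5546 normalised read counts with YK-4-279, against 7526, 7193 and 7066 in DMSO. It also stood at 6468, 7613 and 7137 in siDHX9, against 7705, 8172 and 8240 in scrambled libraries. All libraries of both treatments were below their controls, DDX46 fell by 0.34 ± 0.07 on the log2 scale with the drug (SE, limma adjusted p = 0.00795), and the knockdown difference of -0.19 ± 0.07 missed the threshold (limma adjusted p = 0.0896). DHX38, which remodels the spliceosome between its catalytic steps (chr16:72127615-72146810), had 4358, 3960 and 4112 with YK-4-279, against 3572, 3379 and 3233 in DMSO. Its groups did not overlap, and it rose by 0.29 ± 0.09 (limma adjusted p = 0.0456), a call that was lost in 13 of 25 alternatives, among them each of the 6 in which 1 drug or DMSO library was left out.

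DHX8, which releases spliced mRNA from the spliceosome (chr17:41561233-41622155), had 1036, 1025 and 963 normalised read counts in siDHX9, against 1335, 1565 and 1213 in scrambled libraries. With YK-4-279 it had 1201, 1090 and 1050, against 1083, 1106 and 1036 in DMSO. Every siDHX9 library was below every scrambled library, whereas the drug and DMSO libraries overlapped. DHX8 fell by 0.44 ± 0.10 in siDHX9 cells (SE, limma adjusted p = 0.0114) and differed by 0.05 ± 0.10 with the drug (95% interval -0.17 to 0.26). The fall in siDHX9 cells lost its call with only the 6 libraries compared and without scrambled replicates 1 and 2, with an adjusted p of 0.000475 to 0.24 over 25 alternatives. The difference of effects was 0.48 ± 0.14 (limma adjusted p = 0.0455), and it was lost in 13 of 24 alternatives, over which the adjusted p was 0.0143 to 0.267. DHX15, which frees the excised intron (chr4:24529087-24586184), had 8241, 9564 and 8353 in siDHX9, against 9956, 10844 and 11038 in scrambled libraries. Its groups did not overlap, and it fell by 0.29 ± 0.08 (limma adjusted p = 0.0244). The DHX15 call was lost without scrambled replicate 2 or 3 or siDHX9 replicate 1 or 3. DDX39B, which acts in splicing and mRNA export and has the highest read count of the splicing entries (joined with ATP6V1G2, with no value per length), had 28118, 30179 and 28253 with YK-4-279, against 24043, 26179 and 26323 in DMSO, a log2 difference of 0.18 ± 0.08 that missed the threshold (limma adjusted p = 0.134).

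**Figure D3:**
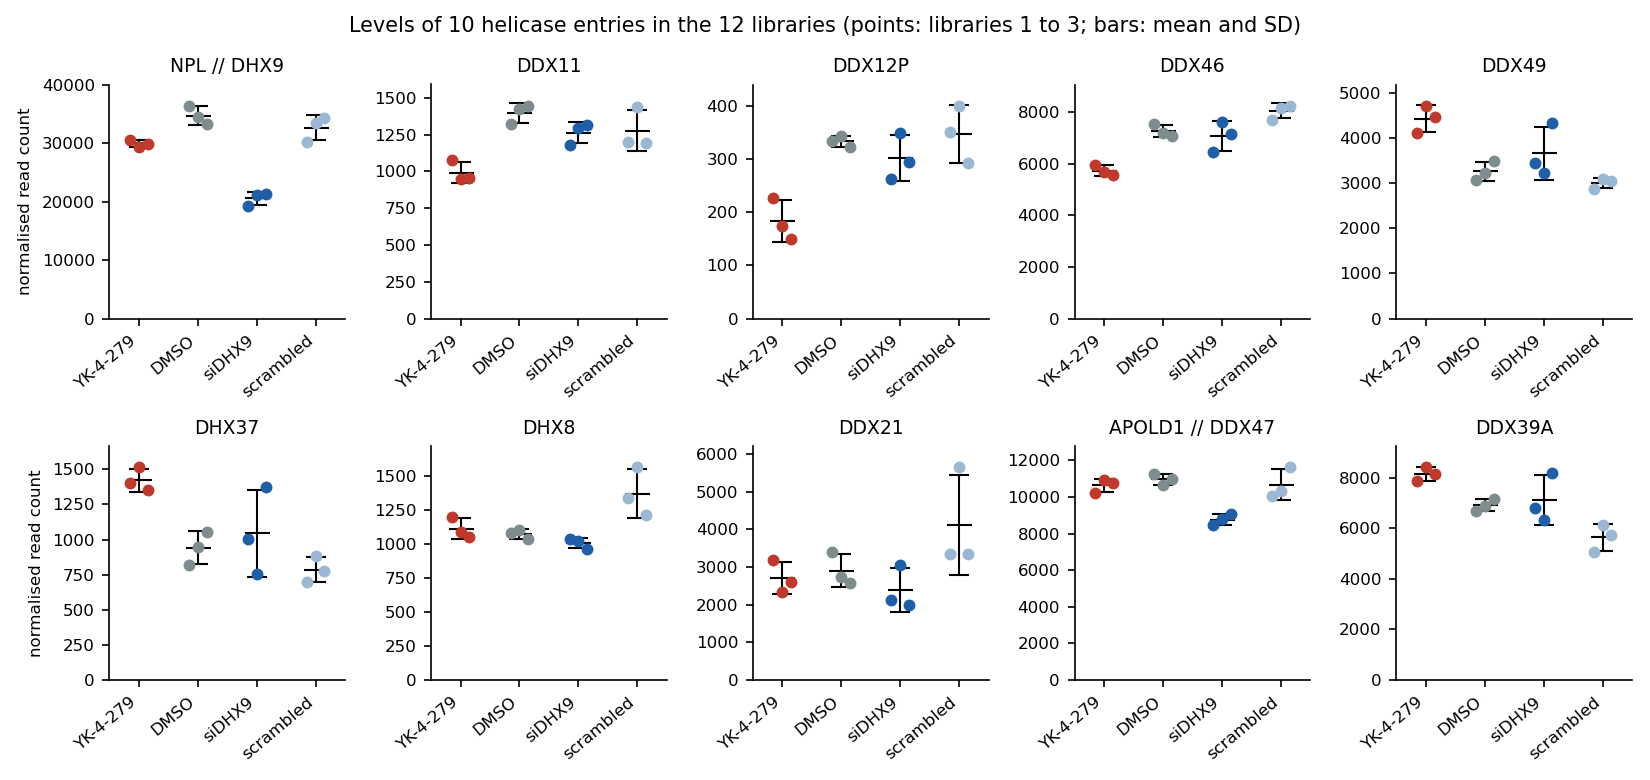
Normalised read counts (vertical axes, each from 0) of 10 helicase entries in the 3 libraries of each group, with the mean and SD as bars. DHX9 is lowest in siDHX9 libraries at 19342 to 21304 and lower with YK-4-279 (29420 to 30613) than in DMSO (33239 to 36422), and DDX11, DDX12P and DDX46 are lower with YK-4-279 than in DMSO.

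DDX11 and its relative DDX12P had the largest called falls with YK-4-279. DDX11, a DNA helicase needed for cohesion of sister chromatids (chr12:31226778-31257732), had 1075, 945.1 and 953 normalised read counts with YK-4-279, against 1322, 1427 and 1446 in DMSO. DDX12P, annotated by its symbol as a pseudogene (chr12:9570287-9600816), had 225.9, 173.9 and 150.1, against 333.5, 342.6 and 322.3 in DMSO. All drug libraries of both were below all DMSO libraries. DDX11 fell by 0.50 ± 0.10 and DDX12P by 0.88 ± 0.17 on the log2 scale (SE, limma adjusted p = 0.00523 and 0.00414), that is, DDX11 fell by 29.2% and DDX12P fell by 45.6%. Both calls were kept in all 25 alternatives.

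In the knockdown comparison, DDX11 had 1179, 1298 and 1312 normalised read counts in siDHX9, against 1196, 1441 and 1194 in scrambled libraries, and DDX12P had 262.8, 347.6 and 294, against 349.8, 399.5 and 291.3. Neither gene separated the groups. The drug and knockdown effects on DDX11 differed by -0.49 ± 0.14 (SE, limma adjusted p = 0.0413), and this was lost in 12 of 24 alternatives, over which the adjusted p was 0.00839 to 0.0979. For DDX12P the difference of effects was -0.68 ± 0.23 (limma adjusted p = 0.0827). The 2 genes are not independent measurements: 43.8% of the 50-base stretches of DDX12P transcripts occur in DDX11 transcripts, and no source used here says where the authors' counting placed such reads. DDX19B and DDX19A share 14.7% and 8.24% of theirs within 1 joined entry, and 46 of the 56 symbols share none with another member.

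Among the 5 helicases of translation and mRNA turnover 1 rose with the drug, where 7.33% of all genes rose. DHX34, a factor of nonsense-mediated mRNA decay (chr19:47852538-47889887), had 1065, 1217 and 1108 normalised read counts with YK-4-279, against 664, 759.7 and 882.1 in DMSO. The groups did not overlap, and DHX34 rose by 0.56 ± 0.15 on the log2 scale (SE, limma adjusted p = 0.028). DHX34 and DHX37 lost the call without DMSO replicate 1, DMSO replicate 2 or any 1 of the 3 drug libraries, DDX54 without those DMSO libraries or YK-4-279 replicate 1 or 2, and DDX49 without those DMSO libraries or YK-4-279 replicate 2. DDX3X, a translation initiation helicase with the highest read count of this role, though not per length, had 2971, 2464 and 2669 with YK-4-279, against 3357, 2920 and 2581 in DMSO, and 2347, 3251 and 2493 in siDHX9, against 2412, 4119 and 2777 in scrambled libraries. Its groups overlapped in both comparisons.

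Of the 2 tested entries in mRNA export and the 2 in mitochondrial RNA, 1 each was higher in siDHX9 cells. Over all genes 8.75% rose there, and so few entries give no result about a role. DDX39A, the mRNA export paralogue of DDX39B (chr19:14519611-14530195), had 6825, 6333 and 8215 normalised read counts in siDHX9, against 5080, 6133 and 5747 in scrambled libraries. With YK-4-279 it had 7867, 8422 and 8155, against 6680, 6909 and 7157 in DMSO. Treated libraries were above their controls in both comparisons, and the call was made in siDHX9 cells (0.33 ± 0.10 on the log2 scale, SE, limma adjusted p = 0.0323) and not with the drug (0.24 ± 0.10, limma adjusted p = 0.115), with no difference of effects called (-0.09 ± 0.13, limma adjusted p = 0.705). DDX28, which helps assemble the mitochondrial ribosome (chr16:68055179-68057770), had 1786, 1885 and 1989 in siDHX9, against 1349, 1330 and 1762 in scrambled libraries. Its groups did not overlap, although scrambled replicate 3 stood near the siDHX9 values, and DDX28 was higher by 0.36 ± 0.11 (limma adjusted p = 0.0385). DMSO libraries had 1923, 2034 and 1924 for DDX28. On the log2 scale scrambled minus DMSO was -0.42 for DDX28 and -0.29 for DDX39A, and siDHX9 minus DMSO was -0.06 and 0.03. These differences from DMSO, which also involve time and transfection, were not tested. Neither the DDX39A nor the DDX28 call held without scrambled replicate 1, siDHX9 replicate 1 or siDHX9 replicate 3. Over all 25 alternatives the DDX28 call was lost in 12 and the DDX39A call in 6. DHX30, with the higher read count of the mitochondrial RNA members, though not per length, had 2313, 2473 and 2402 with YK-4-279, against 1988, 1992 and 2107 in DMSO, a log2 difference of 0.24 ± 0.10 (limma adjusted p = 0.121).

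No helicase of the other roles passed the test except DHX40. DHX40 (chr17:57642886-57685716) had 1082, 1348 and 1070 normalised read counts in siDHX9, against 1582, 1749 and 1310 in scrambled libraries. It fell by 0.40 ± 0.12 (SE, limma adjusted p = 0.0343), although siDHX9 replicate 2 was above scrambled replicate 3, and the call was lost without scrambled replicate 1 or 2 or siDHX9 replicate 1 or 3. DDX1, at the top of the transcription and microRNA group, had 20045, 20427 and 21112 with YK-4-279, against 23586, 22655 and 22176 in DMSO. Those groups did not overlap, and the log2 difference of -0.15 ± 0.07 missed the threshold (limma adjusted p = 0.162). DHX57, with the highest read count of the helicases without an assigned role, though not per length, had 1505, 1398 and 1408 with YK-4-279, against 1747, 1585 and 1574 in DMSO (log2 difference -0.19 ± 0.08, limma adjusted p = 0.154). DDX25, a germ line helicase, had 56.21, 52.28 and 58.43 with YK-4-279, against 38.05, 50.64 and 29.53 in DMSO, and its log2 difference of 0.52 ± 0.26 missed the threshold as well (limma adjusted p = 0.195).

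The 4 RNA sensing helicases were low in every library and none was called. DDX58 (RIG-I), which recognises viral RNA in the cytosol, had 148.1, 116.6 and 104.8 normalised read counts with YK-4-279, against 154.4, 170.8 and 197.7 in DMSO. It had 159.3, 162.8 and 224.8 in siDHX9, against 266, 207.1 and 250.4 in scrambled libraries. The drug libraries were all below DMSO and the knockdown libraries overlapped their controls, with log2 differences of -0.51 ± 0.18 and -0.41 ± 0.18 (SE, limma adjusted p = 0.0804 and 0.131). DHX58 (LGP2), its regulator, had 12.41, 23.78 and 15.13 in siDHX9, against 9.02, 12.02 and 3.99 in scrambled libraries. The groups did not overlap, but the counts were small and the log2 difference was 1.01 ± 0.49 (95% interval -0.03 to 2.06, limma adjusted p = 0.161). DDX60 ranged from 4.32 to 22.87 and DDX60L from 9.02 to 41.09 over the 12 libraries, and both overlapped between groups in each comparison. Of 15 other genes of the RIG-I pathway, 1 fell with the drug, the kinase TBK1 (-0.65 ± 0.15, SE, limma adjusted p = 0.013), and 2 rose in siDHX9 cells, the ubiquitin-like ISG15 (0.88 ± 0.13, adjusted p = 7e-04) and the RIG-I ligase RNF135 (0.40 ± 0.09, adjusted p = 0.0107). Over all genes 6.49% fell with the drug and 8.75% rose in siDHX9 cells, so these counts are near the background, and the medians of the 15 were 0.00 with the drug and 0.07 in siDHX9 cells. The TBK1 call was lost in 3 and the RNF135 call in 2 of 25 alternatives.

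Genes for proteins known to bind DHX9 and helicases of other families were set beside the members. Of 17 genes for DHX9 partners, 4 rose with YK-4-279 (7.33% of all genes rose), namely IGF2BP1 (0.70 ± 0.12 on the log2 scale, SE, limma adjusted p = 0.00197), RELA (0.60 ± 0.10, adjusted p = 0.00222), the export receptor NXF1 (0.48 ± 0.11, adjusted p = 0.0107) and YBX1 (0.32 ± 0.08, adjusted p = 0.0156). Another 2 fell (6.49% of all genes fell), of which TOP2A, the DNA topoisomerase of dividing cells, had the larger log2 difference (-1.85 ± 0.26, adjusted p = 0.000622). In siDHX9 cells 1 of the 17 rose, NXF1 (0.36 ± 0.11, adjusted p = 0.0378), and 1 fell, SMN1 (-0.31 ± 0.09, adjusted p = 0.028), against 8.75% and 7.97% of all genes. The siDHX9 and scrambled libraries overlapped for NXF1, and its call was lost in 13 of 25 alternatives. The SMN1 call was lost in 5, the YBX1 call with the drug in 3, and the near-identical copy SMN2 makes the SMN1 value uncertain. Of 19 helicases of other families, none rose and 2 fell with the drug, YTHDC2 and ASCC3, and ZNFX1 rose and SUPV3L1 fell in siDHX9 cells, counts not far from the shares of all genes given above. Of 25 alternatives, ASCC3 lost its call in 6, YTHDC2 in 3, ZNFX1 in 8 and SUPV3L1 in 5. The medians of these 19 were 0.03 with the drug and -0.15 in siDHX9 cells.

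The drug and knockdown differences of the helicases were set side by side. The Spearman correlation of the drug and knockdown differences was 0.55 over 52 entries and 0.22 over all 14225 genes, and 40 of 52 entries (76.9%) had the same sign in both, against 58.9% of all genes. These values are a description, since the entries come from the same libraries and are not independent. Both differences were also higher at higher GC content, as given below. The libraries of the 2 treatments did not overlap with their controls in 14 higher and 14 lower entries with YK-4-279 (26.9% each, against 23.2% and 20.4% of all genes) and in 4 higher and 9 lower entries in siDHX9 cells (7.69% and 17.3%, against 14.9% and 14.4%).

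In both comparisons the log2 differences were higher at higher GC content of the transcript. Over the 48 entries with a GC value, the log2 difference correlated with GC with a Spearman rho of 0.63 for YK-4-279 and 0.58 for siDHX9, against 0.44 and 0.38 over 13751 genes. Of 15 members with at least 55% GC, 5 rose and 2 fell with YK-4-279 (median 0.24), and 2 rose and none fell in siDHX9 cells (median 0.14). Of 22 members under 45% GC, none rose and 1 fell with YK-4-279 (median -0.15), and none rose and 5 fell in siDHX9 cells (median -0.20). Of all genes with at least 55% GC, 15.9% rose and 2.67% fell with YK-4-279, and 14.2% rose and 2.39% fell in siDHX9 cells. Of all genes under 45% GC, 1.12% rose and 10.7% fell with YK-4-279, and 3.52% rose and 13.8% fell in siDHX9 cells. All genes of the same GC ranges had medians of 0.22 with YK-4-279 and 0.16 in siDHX9 cells at the high end and of -0.12 and -0.14 at the low end. DDX11 and DDX12P, with 57.5% and 58.1% GC, fell with the drug against this order.

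**Figure D4:**
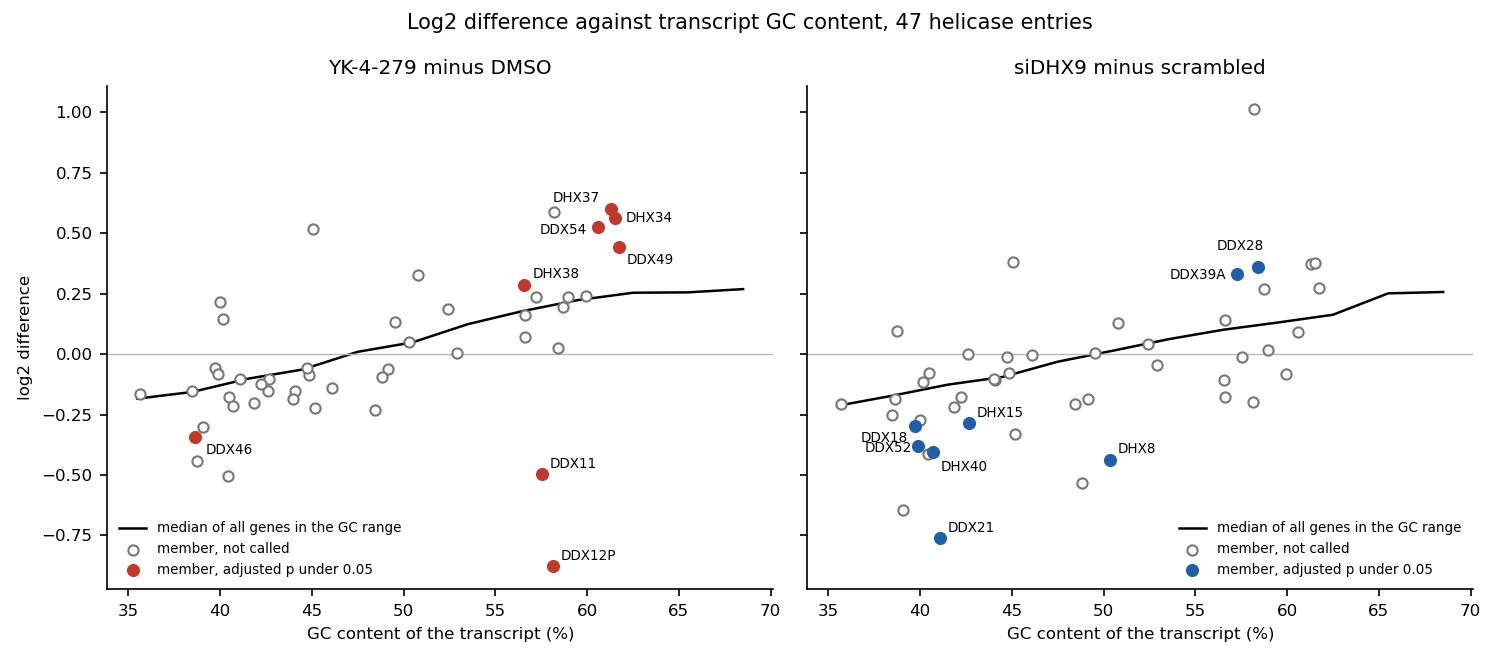
Log2 difference of 47 helicase entries against the GC content of their transcripts (%), for YK-4-279 minus DMSO (left) and siDHX9 minus scrambled (right), with the median of all genes per GC range as a line. Most helicases lie near the line. Of the called ones, with YK-4-279 DDX11 and DDX12P lie far below the line and DHX37, DHX34 and DDX54 above it. In siDHX9 cells DDX21, DHX8 and DHX40 lie below the line and DDX28 and DDX39A above it. Uncalled entries of low count also lie far from it, among them DDX25 above with YK-4-279, and DHX58 above and DDX60 below in siDHX9 cells.

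Single libraries of 1 group also differed along GC content. The deviation of siDHX9 replicate 3 from its group mean correlated with GC with a rho of 0.64 over the 48 entries and that of siDHX9 replicate 2 with a rho of -0.63, while DMSO replicate 1 had -0.44 and YK-4-279 replicate 2 had 0.39. DHX37 and DHX34, both of high GC content, were higher in siDHX9 replicate 3 than in siDHX9 replicate 2, whereas DDX12P and DHX58, also of high GC content, were lower. With each library's trend over GC removed before the fit, 5 helicases were higher and 2 lower with the drug, against 6.24% and 6.2% of all genes in that fit. DDX49, DDX54, DHX34, DHX37, DDX11 and DDX12P kept their calls, DDX46 and DHX38 lost theirs, and DDX10 was called higher. In siDHX9 cells DHX9, DHX8 and DDX21 kept their calls, the other 7 lost theirs, and DHX16 and DHX30 were called lower, which left 5 lower and none higher, against 8.12% and 9.56% of all genes. The part of GC content in the calls was not tested beyond this.

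**Figure D5:**
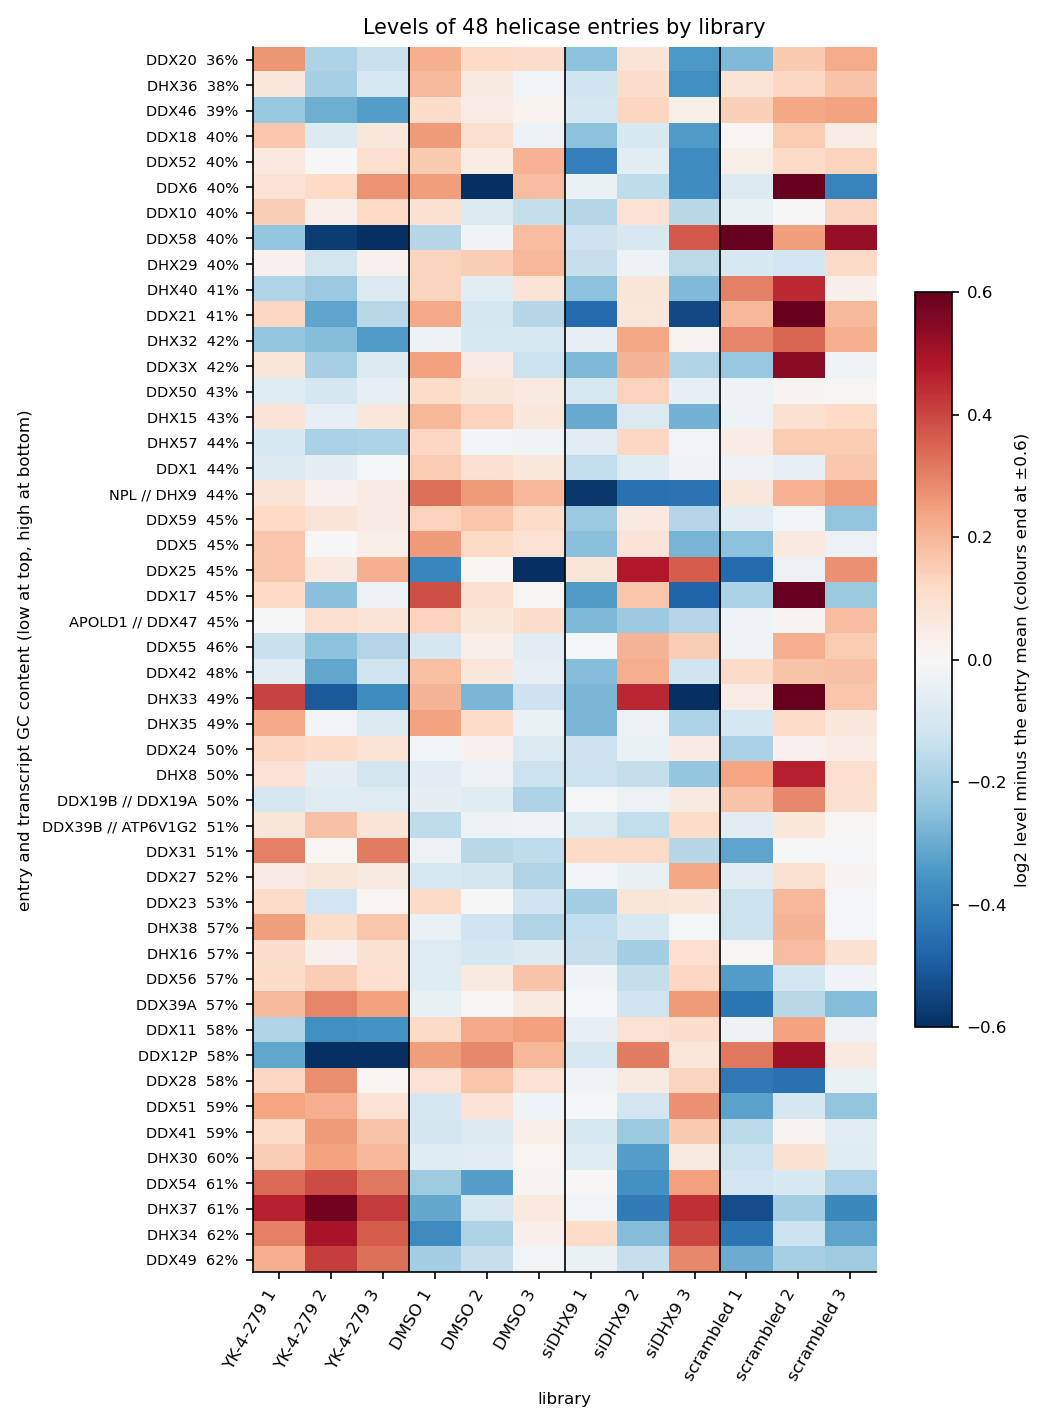
Log2 level of 48 helicase entries in each library minus the entry's mean over 12 libraries (colour), with entries ordered by transcript GC content from low at the top to high at the bottom and libraries in columns by group. Most high GC entries at the bottom are higher with YK-4-279 than in DMSO, while DDX11 and DDX12P are lower. In most of these entries siDHX9 replicates 2 and 3 have opposite colours, but not in DDX11, DDX12P, DDX28 and DHX38. DDX3Y, DHX58, DDX60 and DDX60L are not plotted.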

How the data were processed

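RNA sequencing of 12 TC-71 libraries was analysed from 1 deposited table. Its signal values are, per the file headers, counts that the authors normalised with DESeq size factors, and the submitters' processing notes name FastQC, Picard, SAMtools, STAR 2.4.0, DESeq and the hg19 build. No source used here gives the strand use, counting rules or library preparation. With the value of 1 read taken from the low values of a column, 100% of values were whole reads within 0.1, but in 4 of the 12 columns 1 read is worth within 1% of 1, where this could not be tested separately.

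Named entries with a mean of at least 10 were kept (14225). Values were taken to log2 after adding 1, so changes of low genes are understated, and limma 3.58.1 in R 4.3.3 fitted 1 mean for each group over 12 libraries, with a trended variance and residual degrees of freedom of 8. Tests are two-sided, adjusted by Benjamini-Hochberg over all 14225 genes, and called at 0.05. All adjusted p values are limma's unless another tool is named. The exact permutation test was two-sided. edgeR 4.0.16 (quasi-likelihood, TMM) and DESeq2 1.42.0 were run on the recovered reads as alternatives. edgeR called 939 genes higher and 1059 lower with YK-4-279 and 1267 higher and 1248 lower in siDHX9 cells.

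GC content and exon length came from GENCODE v29 by symbol, and coordinates from the table. Joined entries have neither and were left out of the comparisons of helicases by GC content or length. For a joined entry, that of DHX9 included, the mean GC content over its genes orders the plot of levels by library. That mean also served to remove the trend and entered the GC values over all genes. The rule for named genes took DHX9, every called helicase, the helicase with the highest mean count in each role, the RNA sensors and called genes of the other lists, of which 1 called DHX9 partner is counted but not named. The other helicases named for their level per length or for a call after the GC trend was removed were chosen after their values were seen. The RefSeq promoters do not cover every symbol. The members, roles and gene lists were chosen with earlier results of these data known. The limma fit, but not edgeR or DESeq2, was tested on simulated counts with a fixed spread and no GC trend, unlike the measured libraries. That test cannot show how the calls fare under such trends. Counting limits treat reads as independent, which reads lacking molecular identifiers are not. Counts differed beyond counting error between any 2 replicates of a group.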

Additional observations from a re-analysis of the deposited data

Results flagged for a closer look

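The drug effect minus the knockdown effect passed the test (limma adjusted p under 0.05) for 3 of 52 helicases, 5.77%, against 9.69% of all genes. The difference was -0.486 on the log2 scale for DDX11, which was lower with YK-4-279 than in DMSO and not separated between siDHX9 and scrambled libraries. It was 0.485 for DHX8, which was lower in siDHX9 libraries than in the scrambled control and not separated between YK-4-279 and DMSO. It was 0.455 for DHX9, which was lower in both treatments than in their controls and more so in siDHX9 cells. The call was lost in 12 of 24 alternatives for DDX11 and in 13 of 24 for DHX8. DHX8 had means of 1008 normalised read counts in siDHX9, 1371 in scrambled, 1113 in YK-4-279 and 1075 in DMSO libraries. The 2 effects compared also differ in time (16 h and 48 h) and in the kind of treatment.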

How the results depend on the processing

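DHX9 stayed lower in siDHX9 cells in all 25 alternatives (-0.739 to -0.577 on the log2 scale), and the calls of DDX11 and DDX12P with YK-4-279 were kept in all 25. For DHX9 with YK-4-279 the log2 difference passed the threshold with TMM factors (-0.24), quantile normalisation (-0.25), edgeR (-0.24), DESeq2 (-0.23), only the 6 libraries compared and scrambled replicates 1 and 2 both left out (-0.21 in both), and without scrambled replicate 3, siDHX9 replicate 2 or siDHX9 replicate 3 (adjusted p values of 0.0323 to 0.0462). Leaving out 1 library gave -0.2413 to -0.1753, and removing the GC trend per library gave -0.12 (limma adjusted p = 0.277).

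Leaving out 1 library gave 0 to 9 helicases higher and 3 to 5 lower with YK-4-279, 0 to 6 higher and 2 to 13 lower in siDHX9 cells, and 1 to 5 with a difference of effects. The count higher with YK-4-279 was 0 without DMSO replicate 1, DMSO replicate 2 or YK-4-279 replicate 2, 1 without YK-4-279 replicate 1, 2 without YK-4-279 replicate 3 and 9 without siDHX9 replicate 3, where the count lower was 5. The count lower in siDHX9 cells was 3 without scrambled replicate 2, and 2, 13 and 4 without siDHX9 replicates 1, 2 and 3. With only the 6 libraries compared, 12 were higher and 11 lower with the drug, and 0 higher and 1 lower in siDHX9 cells. Without scrambled replicates 1 and 2, 5 were lower with the drug, 0 higher and 2 lower in siDHX9 cells, and 1 had a difference of effects. With the GC trend removed per library, an alternative chosen after seeing the data, 0 were higher and 5 lower in siDHX9 cells and 5 had a difference of effects, which 6 had with quantile normalisation and 5 with DESeq2. The number of all genes called also moved with the setting, for example 939 higher with YK-4-279 in edgeR and 1267 in DESeq2. Shares of all genes are not given here for each setting, so these counts are no result about helicases as a group. The causes of the shifts in the counts were not tested.

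The deviations of same-numbered libraries correlated at -0.00852 to 0.117, and those of differently numbered libraries at -0.143 to 0.0787. Between siDHX9 and scrambled, the same-numbered values (0.0473 to 0.0782) were above all others (at most 0.0407). Such small values cannot decide whether the numbers mark a pairing, and the main fit used none. With the replicate block 1 helicase was higher in siDHX9 cells, 7 were lower, and 4 and 3 were higher and lower with YK-4-279.

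Signs reversed only among differences that missed the threshold. DDX3X with YK-4-279 was 0.009656 with the GC trend removed, and DDX60L in siDHX9 cells was -0.05757 with quantile normalisation and -0.2677 without scrambled replicates 1 and 2. When 1 library was left out, DDX60 with YK-4-279 ranged from -0.7142 to 0.2813, and in siDHX9 cells DDX3X ranged from -0.3411 to 0.04476, DDX39B from -0.1176 to 0.009476, DHX30 from -0.1658 to 0.02654 and DDX60L from -0.3515 to 0.3606. Of the other 1358 comparisons of single genes with their alternatives, 1181 kept direction and call, 167 lost the call and 10 gained it. Low counts limit the RNA sensors, and joined entries limit DHX9 and DDX47.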
